A study of Mus musculus with 16 samples.

Results

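The genes described here are 10 protein-coding genes, Thsd7a, Col4a3bp, Pgm2l1, Rbms3, Mosmo, Ccdc50, Fam76b, Triqk, Crbn and Rnf13, out of the 52636 genes listed in the counts. They were chosen because their mRNA was lower after nerve injury or after the antidepressant desipramine (DMI) in these same libraries. All 10 passed the filter on low counts, which left 21371 genes to be tested. Their levels were read in the dorsal root ganglia (DRG), the ganglia beside the spinal cord that hold the cell bodies of sensory neurons, of male C57Bl6/J mice aged 3 to 4 months. Each of the 16 libraries came from the pooled L3 to L6 DRGs of 1 mouse, and each of the 4 groups held 4 mice.

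Sham-Saline mice had sham surgery and saline injections. SNI-Saline mice had the spared nerve injury (SNI), a lasting partial lesion of the sciatic nerve, and saline injections. Sham-DMI and SNI-DMI mice had the same surgeries and received 15 mg/kg DMI, a tricyclic compound that blocks noradrenaline reuptake, by intraperitoneal injection 2 times per day. Injections ran for 3 weeks and began 4 weeks after surgery, although the study's methods give months in place of weeks. The labels call the tissue spinal cord and the cells dorsal root ganglia. The summed level of 10 sensory neuron markers ran from 8956 to 11130 CPM (counts scaled to a common library size), and that of 7 spinal cord markers from 14.1 to 27.3 CPM. Olig1, Olig2, Mog, Slc6a5 and Lbx1, which mark spinal glia and interneurons, stayed at 0 to 1.04 CPM in every library, while Aqp4 and Slc1a2, which satellite glia also express, reached 13.4 and 14.2 CPM. Between 41194238 and 73920332 reads per library fell on genes, and the least abundant of the 10 genes, Fam76b, had 559 to 1281 reads per library.

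The 10 genes do not form one pathway. Crbn, Rnf13, Ccdc50 and Mosmo have roles around ubiquitin, the tag that marks proteins for breakdown or sorting, and ubiquitin ligases attach it to chosen substrates. Col4a3bp and Triqk act at the endoplasmic reticulum, and Thsd7a lies in the plasma membrane. Pgm2l1 makes a sugar phosphate, while Rbms3 and Fam76b work with RNA. A sensory neuron supplies the membrane and protein of its long axon from the cell body in the ganglion.

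Because expression chose the genes, the values that chose them are a description and carry no test. Each was, in at least 1 of 3 comparisons, among the 5 lower genes with the smallest p whose adjusted p was under 0.1 and whose groups did not overlap. In SNI-Saline versus Sham-Saline, where 1019 lower genes met these conditions, Thsd7a, Col4a3bp, Pgm2l1 and Rbms3 took the first 4 places (log2 fold changes of -0.51, -0.30, -0.41 and -0.39). The place after them went to Gm14137 (-0.77), which is not among the 10, and Arl5a (-0.31) came just outside. In SNI-DMI versus SNI-Saline, with 307 such genes, Fam76b, Triqk, Crbn and Rnf13 took places 2 to 5 (-0.39, -0.32, -0.25 and -0.32), after ENSMUSG00000109554 (-0.65), and Itgb3bp (-0.41) came just outside. In Sham-DMI versus Sham-Saline, with 1508 such genes, Col4a3bp took place 1, Mosmo place 4 and Ccdc50 place 5 (-0.36, -0.38 and -0.41), and Arl5a (-0.36) came just outside. Each gene was tested only in the comparison that shares no library with the one that chose it. Col4a3bp was chosen in 2 comparisons, so no such comparison was left for it.

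The genes shared a base composition. GC content was no criterion of the choice. Genes of low GC content and long genes were lower as classes in the comparisons that chose, as described further on. The shared composition and length are therefore not independent of the choice. The exonic GC content, the share of G and C bases over all annotated exons, ran from 36.1% in Triqk to 43.4% in Thsd7a, with a median of 40.8%, against a median of 49.1% over 21324 tested genes with a value. Divided by GC content into 10 equal classes, 6 of the 10 genes fell in the lowest class and the other 4 in the next. Exonic length ran from 3568 bases in Triqk to 13737 bases in Thsd7a, with a median of 8438 bases against 3404 bases over the tested genes. The coding parts alone were also poorer in GC, with a median of 44.2% against 53.1%.

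The DNA around the starts of most of the genes was richer in GC than their exons, and 4 windows are printed to show this beside the GC-poor mRNAs. The sequences are the 250 bases before the transcription start, 5′ to 3′ on the gene's strand, from RefSeq on GRCm38.p6, where 9 of the 10 genes were matched (Col4a3bp under its newer name Cert1). Their GC content ran from 52.0% in Rbms3 to 71.2% in Pgm2l1, with a median of 65.2%, against a median of 52.4% over 32851 windows of the same length, just above the value of Rbms3. The GENCODE models of Thsd7a, Col4a3bp, Pgm2l1, Mosmo and Ccdc50 begin within these windows, and most of the Pgm2l1 window lies inside its model, so the windows are not all upstream of every annotated start. Capitals mark every match to 1 of 5 promoter motifs on either strand. The windows lie at chr7:100227357-100227606 (plus strand) for Pgm2l1, chr7:120677370-120677619 (plus) for Mosmo, chr9:13827466-13827715 (plus) for Fam76b and chr3:57735807-57736056 (plus) for Rnf13.
Pgm2l1: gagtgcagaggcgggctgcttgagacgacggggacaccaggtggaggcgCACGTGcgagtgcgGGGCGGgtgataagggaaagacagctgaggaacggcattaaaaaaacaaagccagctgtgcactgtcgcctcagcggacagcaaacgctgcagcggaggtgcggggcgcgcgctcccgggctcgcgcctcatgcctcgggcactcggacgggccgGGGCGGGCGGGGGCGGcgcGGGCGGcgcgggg
Mosmo: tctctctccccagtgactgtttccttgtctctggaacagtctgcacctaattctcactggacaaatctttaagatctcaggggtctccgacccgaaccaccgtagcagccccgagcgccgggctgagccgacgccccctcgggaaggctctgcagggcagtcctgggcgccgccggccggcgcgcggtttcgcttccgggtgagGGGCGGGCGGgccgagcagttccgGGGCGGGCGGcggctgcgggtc
Fam76b: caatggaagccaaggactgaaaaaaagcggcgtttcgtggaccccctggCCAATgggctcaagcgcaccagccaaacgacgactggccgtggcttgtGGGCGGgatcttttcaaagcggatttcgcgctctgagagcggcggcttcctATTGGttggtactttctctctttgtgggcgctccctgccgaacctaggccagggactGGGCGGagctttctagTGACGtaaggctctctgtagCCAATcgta
Rnf13: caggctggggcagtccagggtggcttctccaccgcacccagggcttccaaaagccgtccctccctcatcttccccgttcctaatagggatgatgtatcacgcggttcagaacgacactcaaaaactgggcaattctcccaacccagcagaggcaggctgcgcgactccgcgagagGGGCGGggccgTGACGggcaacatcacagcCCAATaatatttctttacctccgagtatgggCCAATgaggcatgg

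The motifs searched were the GC box GGGCGG, which Sp1 binds, the CCAAT box CCAAT, the core TGACG of the cyclic AMP response element (CRE), the E box CACGTG and the TATA box TATAAA, each with its reverse complement. A GC box was found in 8 of the 9 matched genes, all but Rbms3, and in 32.7% of all windows. In Pgm2l1 and Mosmo the boxes lay in a row close to the start, 13 to 32 and 18 to 46 bases before it, and Pgm2l1 held a further one at 187 bases. A CCAAT box was present in 3 of 9 (Thsd7a, Fam76b and Rnf13) and in 33.8% of all windows, and a CRE core in 4 of 9 (Thsd7a, Col4a3bp, Fam76b and Rnf13) and in 17.8%. The E box occurred in 1 of 9 (Pgm2l1) against 6.02%, and the TATA box in 1 of 9 (Rbms3) against 12.4%. The TATA match in Rbms3 lay 232 bases before the start. Rbms3 also had a second window, at another start, with a GC content of 57.2% and 0 matches, which the values above leave out. These are matches of letters only.

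Compared per length, as CPM per kilobase of exon (RPKM), Pgm2l1 had the highest mean level of the 10 genes over the 16 libraries (41.5 RPKM), above 93.85% of tested genes. Rbms3 followed at 30.0, Crbn at 23.01, Col4a3bp at 17.8 and Rnf13 at 12.4 RPKM. Thsd7a (8.53), Ccdc50 (7.42), Triqk (7.23), Mosmo (5.98) and Fam76b (3.26 RPKM) were lower, and even Fam76b lay above 52.8% of tested genes.

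For all 10 genes Sham-Saline had the highest mean of the 4 groups, as the plot of levels by mouse shows. Thsd7a, Col4a3bp, Pgm2l1, Rbms3, Mosmo and Ccdc50 were chosen for lying below Sham-Saline, so for them this follows in part from the choice. The share of all genes with this order is not given, so the count is a description only. In 9 of the 10, all but Rbms3, every Sham-DMI mouse was below every Sham-Saline mouse, as in 8.51% of all genes tested, in a comparison that chose 3 of the 10. In whole ganglia, fewer cells of a type and less RNA per cell cannot be told apart.

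**Figure D1:**
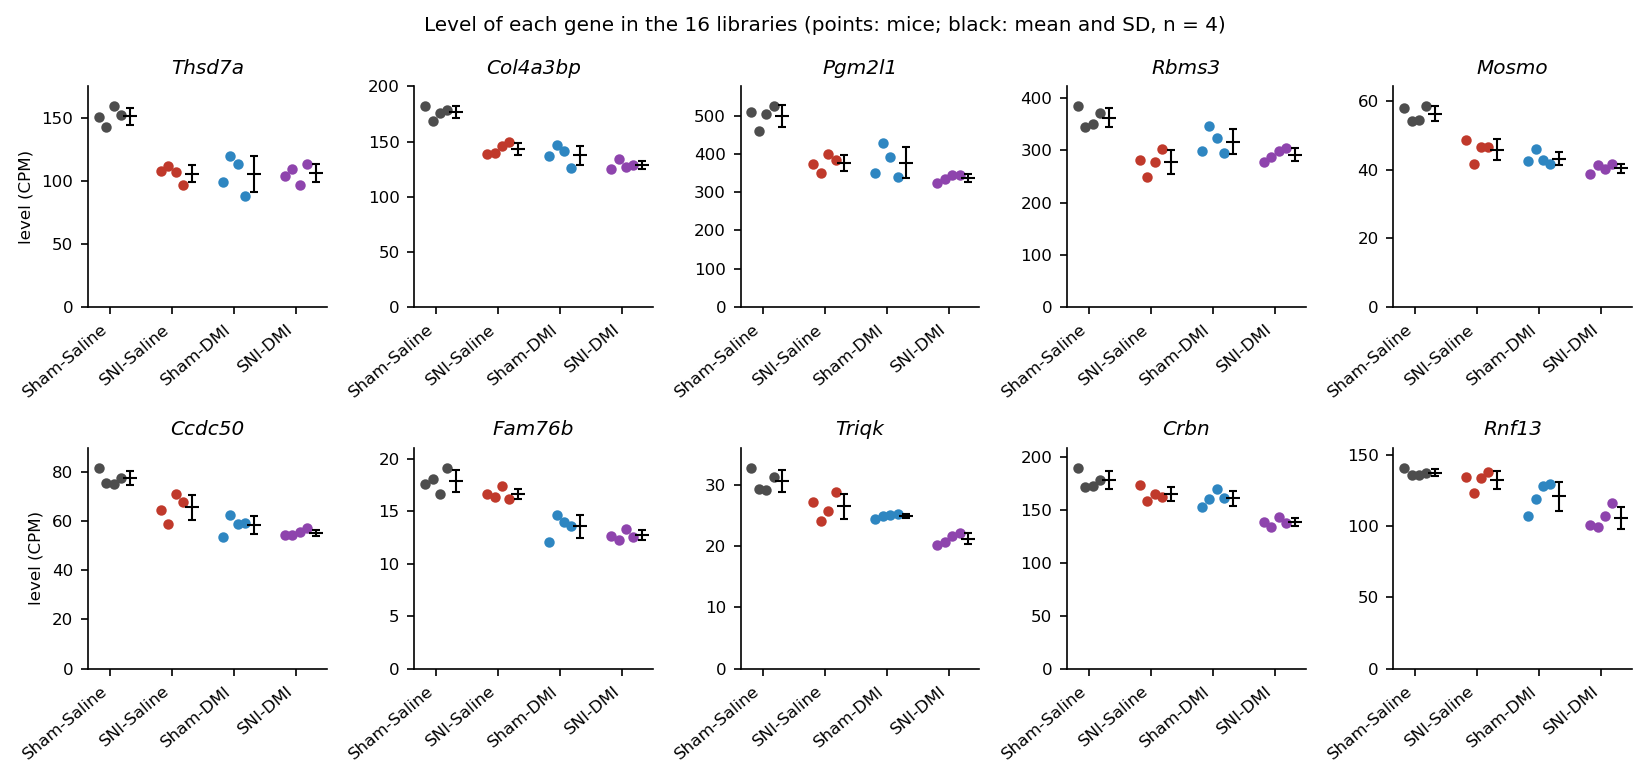
Level of the 10 genes in CPM (linear axes from 0) in each of the 16 libraries. Coloured points are single mice, and the black marks are the mean and SD of the 4 mice of a group. Sham-Saline holds the highest mean in every panel, and Thsd7a has nearly equal means in the other 3 groups (105 to 106 CPM). Thsd7a, Col4a3bp, Pgm2l1, Rbms3, Mosmo and Ccdc50 were chosen for lying below Sham-Saline.

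Crbn encodes cereblon, the substrate receptor of a cullin 4 ubiquitin ligase and the protein that thalidomide binds (chromosome 6, 106780201 to 106800077, minus strand). Its levels were 190.0, 171, 173 and 178 CPM in the Sham-Saline mice and 152, 160.2, 169.6 and 161 CPM in the Sham-DMI mice. The groups did not overlap, and the gap between the lowest saline mouse and the highest DMI mouse was narrow. Crbn fell by 0.15 on the log2 scale (SE 0.047, 95% interval -0.25 to -0.05, adjusted p = 0.039 by edgeR's quasi-likelihood test), from 178 ± 8.42 to 161 ± 7.09 CPM (SD, n = 4 each). The call was lost without Sham-Saline replicate 1 (edgeR adjusted p = 0.188) or Sham-DMI replicate 1 (0.176), and when trends on GC content and length were taken out, as described further on, the direction turned (0.11). In the injured groups, where it was chosen, it measured 174, 159, 165 and 163 CPM with saline and 139, 134, 144 and 138 CPM with DMI. Crbn shares 144 exonic bases with Trnt1 on the opposite strand, and whether the counting used strand is not stated, so a part of its reads could belong to Trnt1 (median counts of 9980 and 2892).

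Rnf13 encodes a ubiquitin ligase of endosomes and lysosomes with a protease-associated domain (chromosome 3, 57736062 to 57835233, plus strand). Sham-Saline mice measured 141, 136, 136 and 137 CPM, and Sham-DMI mice 107, 119, 128 and 129 CPM. The saline mice lay close together and the DMI mice were spread below them. Rnf13 fell by 0.19 on the log2 scale (SE 0.061, interval -0.31 to -0.06, edgeR adjusted p = 0.0468), from 137 ± 2.42 to 121 ± 10.3 CPM. The same 2 libraries ended the call when left out (edgeR adjusted p = 0.135 and 0.23), and with the trends removed the direction turned (0.17). Among injured mice, the comparison that chose it, levels were 135, 123, 134 and 138 CPM with saline and 101, 99.1, 107 and 116 CPM with DMI.

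Ccdc50 encodes an adaptor that binds ubiquitin chains and takes part in signalling downstream of growth factor and immune receptors (chromosome 16, 27388869 to 27452218, plus strand). It was chosen in the sham-operated mice (77.4 ± 3.02 CPM with saline and 58.4 ± 3.70 CPM with DMI) and tested in the injured ones. SNI-Saline mice measured 64.2, 58.9, 71.1 and 67.7 CPM, and SNI-DMI mice 54.2, 54.4, 55.3 and 57.0 CPM. The DMI mice were close to each other and all below the saline mice. Ccdc50 fell by 0.25 on the log2 scale (SE 0.058, interval -0.37 to -0.12, edgeR adjusted p = 0.0683).

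Mosmo encodes a small membrane protein that, with the ubiquitin ligase Mgrn1, limits the amount of the hedgehog receptor Smoothened at the cell surface (chromosome 7, 120677618 to 120734854, plus strand). It too was chosen in the sham-operated mice (56.3 ± 2.21 CPM with saline and 43.2 ± 1.94 CPM with DMI). In the injured mice it measured 48.5, 41.5, 46.7 and 46.6 CPM with saline and 38.7, 41.2, 40.2 and 41.7 CPM with DMI. One SNI-Saline mouse lay within the range of the DMI mice. The log2 fold change was -0.18 (SE 0.053, interval -0.29 to -0.07) and did not pass the threshold with edgeR (adjusted p = 0.103), while DESeq2 gave an adjusted p of 0.0394.

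Triqk encodes a very small membrane protein of the endoplasmic reticulum (chromosome 4, 12906838 to 12983553, plus strand). Sham-Saline mice measured 32.8, 29.2, 29.2 and 31.3 CPM and Sham-DMI mice 24.3, 24.9, 25.1 and 25.2 CPM, so the DMI mice varied least and lay apart from the saline mice. The level fell by 0.30 on the log2 scale (SE 0.059, interval -0.43 to -0.18, edgeR adjusted p = 0.00398). Injured mice, in which it was chosen, had 26.5 ± 1.99 CPM with saline and 21.2 ± 0.882 CPM with DMI.

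Fam76b encodes a protein of nuclear speckles, the bodies where splicing factors are stored (chromosome 9, 13827716 to 13854987, plus strand). Its Sham-Saline values were 17.6, 18.1, 16.7 and 19.2 CPM, and its Sham-DMI values were 12.04, 14.7, 14.0 and 13.6 CPM. All DMI mice were below all saline mice. With a fall of 0.40 on the log2 scale (SE 0.069, interval -0.54 to -0.25, edgeR adjusted p = 0.00225) it showed the largest change of the 9 genes tested, 24.1%. In the injured mice the means were 16.7 ± 0.513 CPM with saline and 12.7 ± 0.470 CPM with DMI, and SNI-Saline overlapped Sham-Saline.

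The genes chosen for their fall after injury without drug were tested for the same injury effect in mice on DMI. Thsd7a, a membrane protein with thrombospondin repeats known from endothelial cells and from kidney podocytes (chromosome 6, 12311610 to 12749410, minus strand), measured 150.5, 143, 159.5 and 153 CPM in Sham-Saline and 108, 112, 107 and 96.5 CPM in SNI-Saline. Under DMI it measured 99.0, 120.1, 114 and 88.5 CPM in sham-operated mice and 104, 109.9, 97.2 and 114 CPM in injured mice. The DMI groups overlapped fully, and their means were 105 ± 14.3 and 106 ± 7.16 CPM. The injury effect on DMI was 0.01 on the log2 scale (SE 0.079, interval -0.15 to 0.18, edgeR adjusted p = 0.962). That the injury effects with and without DMI differ was not tested, since the second one chose the gene.

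Pgm2l1 makes glucose 1,6-bisphosphate, the cofactor of the sugar phosphate mutases, and is abundant in brain (chromosome 7, 100227394 to 100278868, plus strand). Without DMI its means were 499 ± 28.2 CPM in Sham-Saline and 376 ± 20.4 CPM in SNI-Saline. On DMI the sham-operated mice measured 349.6, 428, 391 and 339 CPM and the injured mice 325, 334, 345 and 345 CPM, with overlapping ranges. The log2 fold change was -0.16 (SE 0.066, interval -0.30 to -0.02, edgeR adjusted p = 0.347).

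Rbms3 encodes a single-stranded nucleic acid binding protein that attaches to AU-rich mRNA ends (chromosome 9, 116572746 to 117629913, minus strand). Its means were 363 ± 18.4 CPM in Sham-Saline and 277 ± 22.3 CPM in SNI-Saline, and on DMI 316 CPM in sham-operated and 292 CPM in injured mice. The DMI groups overlapped, with 296 to 347 and 277 to 305 CPM. The log2 fold change between them was -0.11 (SE 0.063, interval -0.25 to 0.02, edgeR adjusted p = 0.483). Rbms3 was the member whose SNI-DMI mean lay furthest above its SNI-Saline mean, by 0.07 on the log2 scale, a value without a test.

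Col4a3bp encodes CERT, which carries ceramide from the endoplasmic reticulum to the Golgi for the synthesis of sphingomyelin, a main lipid of neuronal membranes and myelin (chromosome 13, 96542618 to 96640167, plus strand). With saline it measured 182, 169, 176 and 179 CPM after sham surgery and 139, 139, 146 and 149.7 CPM after injury. With DMI it measured 137, 146, 141 and 126 CPM after sham surgery and 125, 134, 127 and 129 CPM after injury. Sham-Saline stood alone above the other 3 groups, and all SNI-DMI mice were below all SNI-Saline mice. Fold changes on the log2 scale were -0.30 and -0.36 in the comparisons that chose it, and -0.15 in SNI-DMI versus SNI-Saline and -0.09 in SNI-DMI versus Sham-DMI, all without a test.

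The tests share no library with the choice. Both came from 1 fit whose estimate of spread is shared by all 16 libraries, so they are not fully independent. Counted over these tests, the 4 genes chosen in injured mice on DMI were all called lower in sham-operated mice on DMI. In that comparison 11.9% of all genes were called lower and 11.6% higher. The count was 2 in edgeR on the 8 libraries compared, 2 without Sham-Saline replicate 1 or Sham-DMI replicate 1, and 0 once the GC and length trends were taken out. Of the pair chosen in the sham-operated mice, 1 was called lower in the injured mice (Ccdc50), where 1.61% of all genes were called lower and 1.32% higher. Of the 3 genes chosen after injury without drug, 0 were called lower by edgeR after injury on DMI, a comparison in which 0.0281% of all genes (6 genes) were. At an unadjusted p under 0.05, 1 of the 3 (Pgm2l1) was lower, and DESeq2 also called 0.

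**Figure D2:**
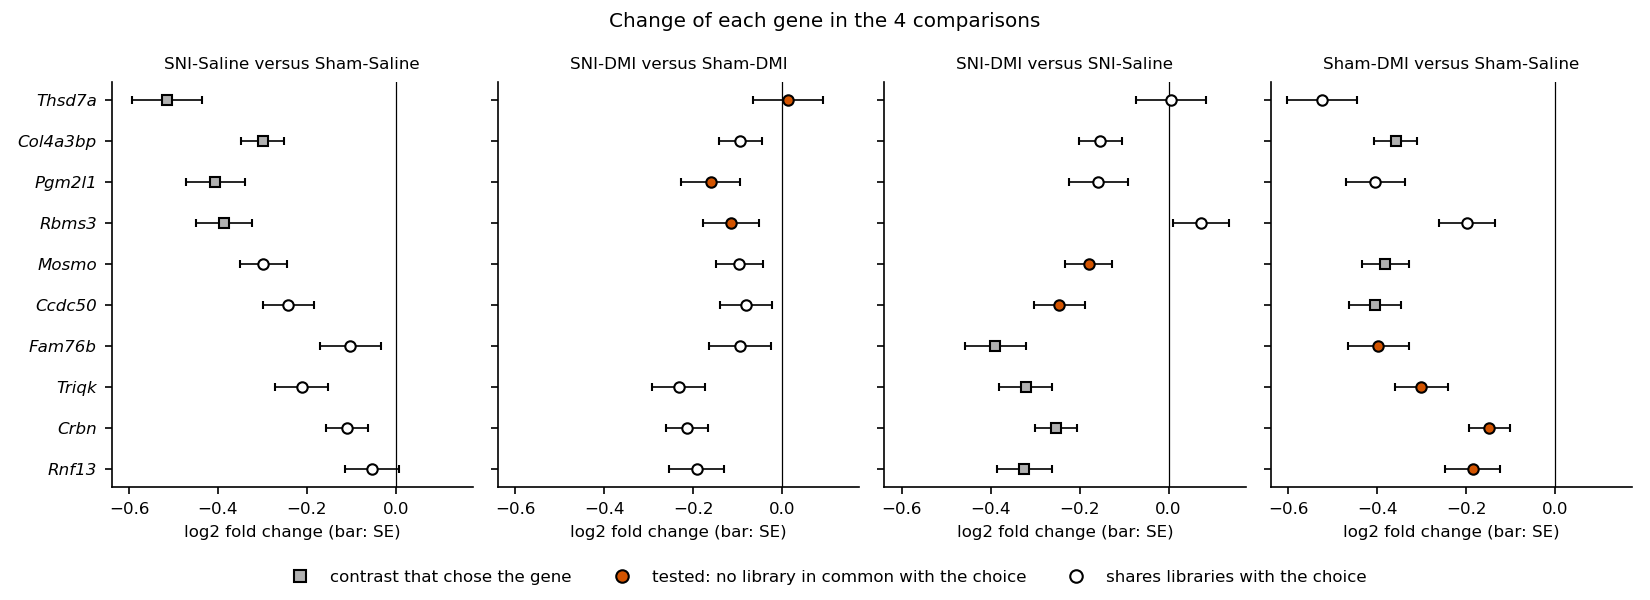
Log2 fold change of each gene in the 4 comparisons, with bars for the SE. Grey squares mark the comparison that chose the gene, filled orange circles the comparison in which it was tested, and open circles comparisons that share libraries with the choice and have no test. All 4 orange circles in Sham-DMI versus Sham-Saline lie between -0.40 and -0.15.

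As a description over all 10 genes, with each comparison giving its own values, 7 were lower without overlap in SNI-Saline versus Sham-Saline (7.74% of all genes), 9 in Sham-DMI versus Sham-Saline (8.51%), 7 in SNI-DMI versus SNI-Saline (5.97%) and 2, Triqk and Crbn, in SNI-DMI versus Sham-DMI (2.15%). The first 3 of these comparisons chose the genes, and adjoining comparisons share 4 libraries, so these counts carry no weight of their own. The median log2 fold changes over the 10 genes were -0.27, -0.37, -0.21 and -0.11, beside medians over all genes of -0.001, -0.021, -0.005 and 0.001.

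The order of the groups was not the same for each gene. In 7 genes (Col4a3bp, Mosmo, Ccdc50, Fam76b, Triqk, Crbn and Rnf13) the SNI-Saline mean lay between those of the sham-operated mice with saline and with DMI, and SNI-DMI was lowest. In Thsd7a, Col4a3bp, Mosmo and Ccdc50, Sham-Saline was free of overlap with its neighbour, and no neighbours below it were. In Pgm2l1 Sham-Saline was likewise free of overlap, and so was the step from SNI-Saline to SNI-DMI, its lowest group. In Rbms3 no neighbours were. For Triqk the first and last steps of the order were free of overlap, for Crbn the last step only, and for Rnf13 no step. For Fam76b the free step lay between SNI-Saline and Sham-DMI, which parts the saline from the DMI libraries.

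The median level of genes of low GC content, and that of long genes, also differed between these groups. The median log2 fold change of the tested genes in the lowest of the 10 GC classes was -0.15 in SNI-Saline versus Sham-Saline, -0.25 in Sham-DMI versus Sham-Saline, -0.18 in SNI-DMI versus SNI-Saline and -0.10 in SNI-DMI versus Sham-DMI, and in the highest class it was 0.05, 0.06, 0.10 and 0.07. In 10 equal classes of exonic length, the shortest and longest had medians of 0.11 and -0.13 in SNI-Saline versus Sham-Saline. These were 0.14 and -0.17 in Sham-DMI versus Sham-Saline, 0.06 and -0.08 in SNI-DMI versus SNI-Saline, and 0.02 and -0.06 in SNI-DMI versus Sham-DMI. The longest class held 4 of the 10 genes and the next longest 4. The pattern with GC content was also seen in single libraries. The median deviation of 597 genes with a GC content near 40% from their mean over the libraries, minus that of 1215 genes near 50%, was 0.15 to 0.25 (log2) in Sham-Saline mice and -0.22 to 0.03 in Sham-DMI mice. After injury it was -0.05 to 0.09 with saline and -0.22 to -0.07 with DMI. In this measure the Sham-Saline mice stood above all others. The labels number the libraries in 1 series, with 17 to 24 for DMI, 33 to 36 for SNI-Saline and 37 to 40 for Sham-Saline, so the order of handling, if the numbers reflect it, cannot be told apart from the groups.

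**Figure D3:**
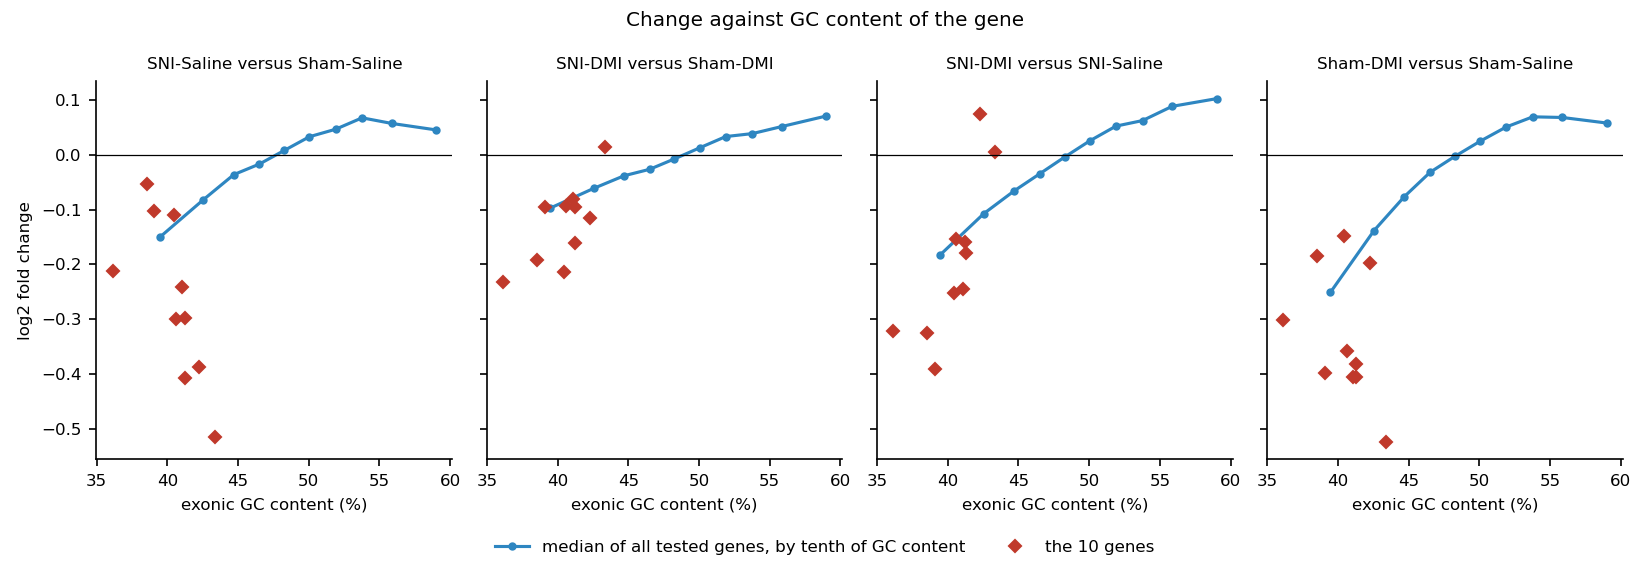
Log2 fold change against exonic GC content (%) in the 4 comparisons. The blue line joins the medians of all tested genes in 10 classes of equal size by GC content, and red diamonds are the 10 genes. In each panel the line is lower in the lowest than in the highest class (from -0.25 in the lowest to 0.06 in the highest class in Sham-DMI versus Sham-Saline), and the diamonds lie at its left end, above and below it.

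Each library's smooth trend on GC content and exonic length was removed. The fitted trend holds the library's mean deviation over genes as well, so its removal also shifted the scaling between libraries. How much of the changes below came from that shift was not tested. After the removal, 0 of the 4 genes were called lower by edgeR in Sham-DMI versus Sham-Saline (0 at an unadjusted p under 0.05). Fam76b kept its direction (-0.11, edgeR adjusted p = 0.259), whereas Triqk (0.11, adjusted p = 0.292) and Crbn (0.11, adjusted p = 0.118) turned to the other direction. Rnf13 was then called higher (0.17, adjusted p = 0.0471). Ccdc50 in SNI-DMI versus SNI-Saline went to -0.08 (adjusted p = 0.377) and Mosmo to -0.02 (adjusted p = 0.892). On DMI, the injury effect became 0.07 for Thsd7a (adjusted p = 0.73), -0.11 for Pgm2l1 (adjusted p = 0.342) and -0.07 for Rbms3 (adjusted p = 0.624). The medians over all 10 genes moved to -0.13 in SNI-Saline versus Sham-Saline and -0.10 in Sham-DMI versus Sham-Saline. They moved to -0.03 in SNI-DMI versus SNI-Saline and -0.06 in SNI-DMI versus Sham-DMI. The medians over all genes were then -0.00035 and 0.04 in the former pair of comparisons, and 0.02 and -0.04 in the latter. Before the removal they were -0.001 and -0.021 in the former pair, and -0.005 and 0.001 in the latter.

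The genes differed in how much was left. In SNI-Saline versus Sham-Saline, Thsd7a stayed at -0.36, Pgm2l1 at -0.26 and Rbms3 at -0.25, while Triqk came to 0.00 and Rnf13 to 0.17. In Sham-DMI versus Sham-Saline, Thsd7a stayed at -0.31 and Pgm2l1 and Ccdc50 at -0.16. In SNI-DMI versus SNI-Saline, Fam76b kept -0.18 and Rbms3 stood at 0.21. Over all genes, the removal, with its shift in scaling, also changed the share of lower genes among those called. In Sham-DMI versus Sham-Saline this share went from 50.6% to 18.8%, and in SNI-DMI versus SNI-Saline from 55.0% to 11.9%. It went from 6.98% to 51.0% in SNI-DMI versus Sham-DMI, with 51.4% and 50.4% in SNI-Saline versus Sham-Saline.

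**Figure D4:**
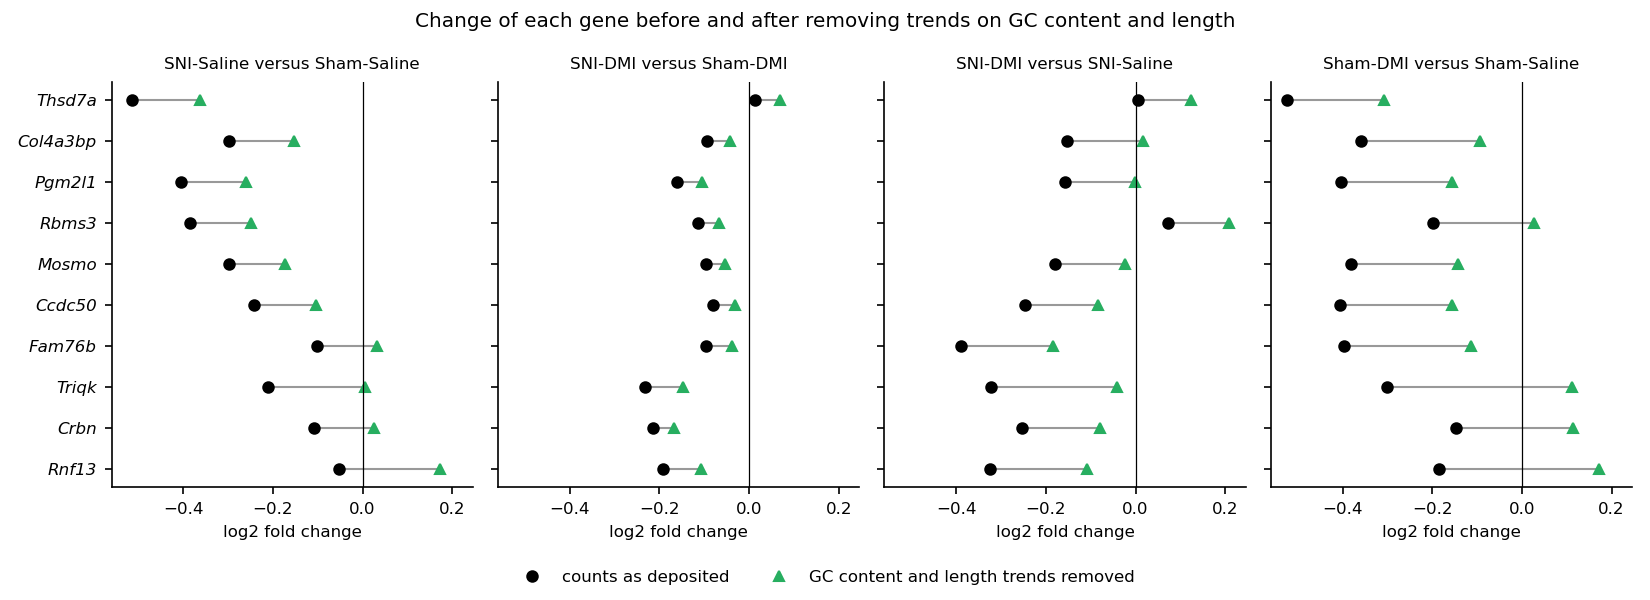
Log2 fold change of each gene in the 4 comparisons from the counts as deposited (black circles) and after each library's trends on GC content and exonic length were removed (green triangles). Every triangle lies to the right of its circle. For Triqk, Crbn and Rnf13 in Sham-DMI versus Sham-Saline it lies above 0.

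Markers of other cells also moved with the groups, and their part in these results was not tested. Of all genes, 11.9% were called lower and 11.6% higher in Sham-DMI versus Sham-Saline. The shares were 6.18% and 5.85% in SNI-Saline versus Sham-Saline, and 1.61% and 1.32% in SNI-DMI versus SNI-Saline. All 6 neutrophil markers were called lower in Sham-DMI versus Sham-Saline, with a summed level of 3.70 to 15.7 CPM against 10.2 to 38.02 CPM, and 2 of 6 in SNI-DMI versus SNI-Saline (4.10 to 13.0 against 14.9 to 49.1 CPM). Of 7 markers of injured sensory neurons, 6 were called higher in SNI-Saline versus Sham-Saline (summed level of 460 to 521 against 276 to 306 CPM) and 5 in Sham-DMI versus Sham-Saline (333 to 374 CPM in Sham-DMI). Of 6 macrophage markers, 3 were called higher in SNI-Saline versus Sham-Saline and 1 lower in Sham-DMI versus Sham-Saline. Of 5 satellite glia markers, 2 (Fabp7 and Apoe) were called higher in Sham-DMI versus Sham-Saline, 1 (Fabp7) in SNI-DMI versus SNI-Saline and 1 (Apoe) in SNI-Saline versus Sham-Saline, with summed levels of 2298 to 2540 CPM in Sham-Saline and 2476 to 3271 CPM over the other groups. One SNI-DMI library held 250.6 CPM of 4 skeletal muscle markers, against at most 70.2 CPM in the other libraries. Of the 10 sensory neuron markers, 1 was called lower and 3 higher in Sham-DMI versus Sham-Saline. With the GC and length trends removed, 0 macrophage markers were called in SNI-Saline versus Sham-Saline (median log2 fold change 0.51, before 0.55). Likewise 0 neutrophil markers were called in SNI-DMI versus SNI-Saline (-1.43, before -1.44), but 6 in Sham-DMI versus Sham-Saline. Of the satellite glia calls above, only that of Fabp7 in Sham-DMI versus Sham-Saline stayed.

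The genes around the members were read from lists of partners and relatives, with the counts called by edgeR to be set against the background above. Of 27 genes of ceramide and sphingomyelin metabolism, the pathway of Col4a3bp, 7 were called lower and 2 higher in Sham-DMI versus Sham-Saline (median log2 fold change -0.05), and 6 lower and 1 higher in SNI-Saline versus Sham-Saline, where 6.18% of all genes were called lower and 5.85% higher. Kdsr, a reductase early in ceramide synthesis, fell by 0.13 and 0.18 on the log2 scale (adjusted p = 0.051 and 0.0296), and the ceramidase Acer3 by 0.24 and 0.21 (adjusted p = 0.014 and 0.0554). The ceramidase Asah2 fell by 0.41 in Sham-DMI versus Sham-Saline (adjusted p = 0.0108) and by 0.37 in SNI-DMI versus SNI-Saline (adjusted p = 0.0876). With the trends removed, 18.8% of all genes called in Sham-DMI versus Sham-Saline were lower and the rest higher. Calls with the trends removed, in this list and those below, are to be set beside that share. Of the 27, 0 were then called lower and 6 higher in that comparison, with 3 lower and 7 higher at an unadjusted p under 0.05. Acer3 then stood at 0.11, Kdsr at 0.05 and Asah2 at -0.17, none of them called.

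The relatives of Pgm2l1 that were called were higher. Of 8 genes that handle hexose phosphates, 3 were called higher and 0 lower in Sham-DMI versus Sham-Saline (1 lower at an unadjusted p under 0.05, and 1 called lower by DESeq2). Pmm1, a phosphomannomutase, rose by 0.29 (adjusted p = 0.00188), the glycolytic isomerase Gpi1 by 0.23 (adjusted p = 0.0104) and Pgm1, a phosphoglucomutase, by 0.17 on the log2 scale (adjusted p = 0.0166). All 3 were also called with the trends removed, at 0.26, 0.27 and 0.17. Pmm1 was also called higher in SNI-Saline versus Sham-Saline (0.21, adjusted p = 0.0224, and 0.13 without a call with the trends removed).

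Among 19 genes with thrombospondin repeats other than Thsd7a, 6 were called lower in Sham-DMI versus Sham-Saline. With the trends removed, 2 of the list were called lower and 1 higher in that comparison. Thbs1 fell by 0.96 there (edgeR adjusted p = 0.0183, and -0.90 with adjusted p = 0.025 with the trends removed). The axon guidance receptor Unc5d fell by 0.59 (adjusted p = 0.0141, and -0.42 with adjusted p = 0.0932 with the trends removed), and the Wnt agonist Rspo2 by 0.18 (adjusted p = 0.0511, and -0.06 without a call). Thbs2, a secreted matrix protein, fell by 0.39 in the same comparison (adjusted p = 0.0743, and -0.29 without a call with the trends removed) and rose by 0.65 in SNI-DMI versus Sham-DMI (adjusted p = 0.0831, and 0.64 with the trends removed), where 0.374% of all genes were called higher. Of 2 relatives of Rbms3, Rbms1 was called lower in SNI-Saline versus Sham-Saline (-0.18, adjusted p = 0.0669, and -0.14 without a call with the trends removed). Of the 2 genes in the list around Fam76b, its relative Fam76a and the splicing factor Hnrnpa2b1, edgeR called 0 in the 4 comparisons with the counts as deposited (0 at an unadjusted p under 0.05), DESeq2 called 0, and with the trends removed edgeR called 1 higher in SNI-Saline versus Sham-Saline and 1 in Sham-DMI versus Sham-Saline.

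In the hedgehog pathway, which Mosmo restrains, 3 of 18 genes were called lower and 1 higher in Sham-DMI versus Sham-Saline, and 3 lower in SNI-Saline versus Sham-Saline. Hhip, a decoy receptor for hedgehog ligands with a low level of 1.81 CPM in Sham-Saline, fell by 1.19 (adjusted p = 0.00661) and 0.77 (adjusted p = 0.0788) on the log2 scale. Its fall was called in Sham-DMI versus Sham-Saline also with the trends removed (-0.95, adjusted p = 0.0197), and in SNI-Saline versus Sham-Saline it was not (-0.64, adjusted p = 0.182). The receptor Ptch1 fell by 0.23 in Sham-DMI versus Sham-Saline (adjusted p = 0.0337), and Gpr161, a ciliary receptor that damps the pathway, by 0.25 in SNI-Saline versus Sham-Saline (adjusted p = 0.0659), and neither was called with the trends removed.

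The cullin 4 ligase that holds cereblon gave opposite calls among its 6 subunits and partners. Cul4b, a scaffold of the ligase, fell by 0.49 in Sham-DMI versus Sham-Saline (adjusted p = 0.00333), by 0.31 in SNI-Saline versus Sham-Saline (adjusted p = 0.0596) and by 0.33 in SNI-DMI versus SNI-Saline (adjusted p = 0.0967). Rbx1, the RING subunit, rose by 0.22 in Sham-DMI versus Sham-Saline (adjusted p = 0.00702) and by 0.17 in SNI-Saline versus Sham-Saline (adjusted p = 0.0507). In Sham-DMI versus Sham-Saline both calls held with the trends removed (-0.34 and 0.35), and so they did in SNI-Saline versus Sham-Saline (-0.27 and 0.20), while that of Cul4b in SNI-DMI versus SNI-Saline was lost (-0.21, adjusted p = 0.234). Of 11 ubiquitin receptors and linear ubiquitin enzymes around Ccdc50, 2 were called higher in Sham-DMI versus Sham-Saline, Rbck1 by 0.19 (adjusted p = 0.0196) and Sharpin by 0.18 (adjusted p = 0.0938), and both also with the trends removed (0.20 each). Of 10 relatives of Rnf13 with a protease-associated domain, 7 were tested, and 2 were called lower and 1 higher in Sham-DMI versus Sham-Saline. Rnf150 fell by 0.22 there (adjusted p = 0.0241), and Znrf3 by 0.33 (adjusted p = 0.0503), and neither was called with the trends removed. Rnf167 rose by 0.21 in the same comparison (edgeR adjusted p = 0.0558) and was also called with the trends removed (0.23, adjusted p = 0.0393). Rnf149 fell by 0.22 in SNI-DMI versus SNI-Saline (adjusted p = 0.0973, and -0.18 without a call with the trends removed).

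The 10 genes varied together over the 16 libraries. The 45 pairs had a median Pearson correlation of log2 CPM of 0.84 (0.41 to 0.97), of 0.49 after the group means were subtracted and of 0.27 after the trends were removed. These are descriptions, since all points share their libraries, depth and base composition. The genes were also chosen for falling between these same groups, so a high correlation was set in part by the choice. No median over pairs of other genes was taken for comparison. The genes most alike to each member among 15730 tested genes with a mean of at least 1 CPM were Mindy2 for Col4a3bp (0.99), Odr4 for Rnf13 (0.99), March6 for Pgm2l1 (0.98), Trp53inp1 for Ccdc50 (0.98), Cops2 for Triqk (0.97), Gdap1 for Mosmo (0.97), Ncoa1 for Thsd7a (0.96), Nap1l2 for Crbn (0.955), Dusp3 for Rbms3 (0.95) and March7 for Fam76b (0.95). With Spearman's correlation only the pair of Rnf13 and Odr4 stayed the most alike (0.98), and with group means subtracted only that pair (0.96) and Pgm2l1 with March6 (0.92). With the trends removed the correlation of Rnf13 with Odr4 was 0.53, and that of Col4a3bp with Mindy2 was 0.96.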

How the data were processed

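RNA from the L3 to L6 DRGs of 16 male mice (1 mouse per library, 4 per group) was sequenced by the authors with a stranded mRNA kit in paired reads of 50 bases, and HISAT2, HTSeq and mm10 are named in the submitters' processing notes. The deposited values are whole-number counts of reads per Ensembl gene, not normalized by the authors, and the 5 lines of unassigned reads that end each file (reads on genes were 79.6% to 81.2% of the total) were left out. The use of strand in the counting, the versions of HISAT2 and HTSeq and the annotation release are not given in the sources used here. Depth, 41194238 to 73920332 reads on genes, gave at least 559 reads per library for each of the 10 genes. For the least abundant, Fam76b and Triqk, counting error is of the size of the spread between mice in some groups.

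Symbols, coordinates, exonic length and GC content came from GENCODE M21 (GRCm38), and promoters from RefSeq. Counts were filtered by filterByExpr, scaled by TMM and fitted over all 16 libraries in edgeR 4.0.16 (R 4.3.3) by the quasi-likelihood test, with 1 coefficient per group and no covariate. Genes with a Benjamini-Hochberg adjusted p under 0.1 over all 21371 genes tested were called. The study used DESeq2, which was run as an alternative (1.42.0). CPM are counts scaled to a common library size after TMM. Trends were fitted in mgcv 1.9.3 (basis size 8) to each library's deviations and entered as offsets. The fitted values include each library's mean deviation, so the offsets also changed the scaling set by TMM. The members and lists were chosen with earlier results of these data known. Which comparison chose which gene was found by reapplying the rule of an earlier analysis. The genes named are the 10 members, the most alike gene of each, up to 3 called genes with the smallest p in each list, the genes beside the threshold of choice, overlapping genes and defining markers. Some of these genes are not reported here. Alternatives were DESeq2 size factors, no filter, DESeq2, edgeR on 8 libraries, the replicate number as a block, the trends removed, both together and each library left out. The fit was tested on simulated data. Python 3.11.15, pandas 2.3.3, numpy 2.4.6 and matplotlib 3.10.9 made tables and figures.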

Additional observations from a re-analysis of the deposited data

How the results depend on the processing

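The count of genes chosen after injury that were called lower in SNI-DMI versus Sham-DMI was 0 in the main analysis and in all alternatives. The 4 genes called lower in Sham-DMI versus Sham-Saline became 2 in edgeR on 8 libraries (Fam76b and Triqk) and 0 with the GC and length trends removed. Without 1 library there were 2 to 4, with 2 without Sham-Saline replicate 1 or Sham-DMI replicate 1. The 1 of 2 genes called lower in SNI-DMI versus SNI-Saline became 2 with DESeq2 and with edgeR on 8 libraries and 0 with the trends removed, and gave 0 to 2 without 1 library. The cause was not tested. With the trends removed the log2 fold change in Sham-DMI versus Sham-Saline turned to 0.11 for Triqk, 0.11 for Crbn and 0.17 for Rnf13, and with the block as well to 0.11, 0.11 and 0.17. DESeq2 size factors changed none of these counts.

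Crbn was not called without the filter on low counts (adjusted p = 0.13), in edgeR on 8 libraries (0.144), or without Sham-Saline replicate 1 (0.188), Sham-DMI replicate 1 (0.176) or Sham-DMI replicate 4 (0.102). Rnf13 was not called on 8 libraries (0.112), or without Sham-Saline replicate 1 (0.135), Sham-Saline replicate 3 (0.121), Sham-DMI replicate 1 (0.23) or Sham-DMI replicate 2 (0.106). Ccdc50 was not called without SNI-DMI replicate 1 (0.133), 2 (0.214) or 3 (0.153), or SNI-Saline replicate 1 (0.138), 3 (0.23) or 4 (0.146). Mosmo was called with DESeq2 (0.0394), on 8 libraries (0.0894), and without SNI-Saline replicate 2 (0.0705), Sham-DMI replicate 1 (0.0694) or Sham-DMI replicate 2 (0.0894). Thsd7a ran from -0.076 to 0.089 (log2) in SNI-DMI versus Sham-DMI, below 0 without Sham-DMI replicate 1 (-0.029) or 4 (-0.076), or SNI-DMI replicate 2 (-0.0035) or 4 (-0.036). Fam76b, Triqk, Pgm2l1 and Rbms3 kept direction and call without any 1 library.

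Over all genes, SNI-Saline versus Sham-Saline gave 1321 lower and 1250 higher genes, 496 and 489 with the trends removed, and 307 to 1711 and 344 to 1722 without 1 library. SNI-DMI versus Sham-DMI gave 6 lower and 80 higher, 33 and 277 without the filter, 163 and 339 with DESeq2, 0 and 9 on 8 libraries, 104 lower with the trends removed, and 0 to 534 and 17 to 316 without 1 library. SNI-DMI versus SNI-Saline gave 344 lower and 282 higher, 1012 and 847 with DESeq2, 907 and 905 on 8 libraries, 5 and 37 with the trends removed, and 0 to 963 and 0 to 879 without 1 library. Sham-DMI versus Sham-Saline gave 2535 lower and 2475 higher, 786 lower with the trends removed, and 1406 to 2824 and 1880 to 3270 without 1 library. The cause of these shifts was not tested.

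Replicate numbers do not pair the mice: deviations of same-numbered libraries from their group means correlated at -0.081 to 0.18, above 0.1 in 4 of 16 pairs, and 8 of 32 checks found the own number best. With the number as a replicate block the members called stayed at 0 and 4 and fell to 0 from 1 in SNI-DMI versus SNI-Saline, where Ccdc50 had an adjusted p of 0.107. Genes called went to 3 lower in SNI-DMI versus Sham-DMI and to 86 lower and 86 higher in SNI-DMI versus SNI-Saline. With the block and the trends removed, 0 members were called lower in each test. SNI-Saline versus Sham-Saline then gave 272 lower and 288 higher genes, SNI-DMI versus Sham-DMI 30 lower, SNI-DMI versus SNI-Saline 0 and 0, and Sham-DMI versus Sham-Saline 759 lower.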
